A study of Homo sapiens with 6 samples.

Results

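The genes described here encode proteins of the U5 small nuclear ribonucleoprotein (U5 snRNP) and the factors that help to assemble it. They are a fixed list of 10 genes, PRPF8, EFTUD2, SNRNP200, PRPF6, DDX23, TXNL4A, CD2BP2, AAR2, ZNHIT2 and ECD. Each symbol matched 1 gene of the 57820 in each count file, and all 10 were counted well above 0 in every library, with 519 to 10537 estimated counts. RNA sequencing had been done on total RNA of the human prostate cancer line C4-2B-ENZR, which the study title marks as resistant to enzalutamide, a prostate cancer drug. Each group had 3 libraries. The control libraries came from cells transfected with a negative-control siRNA, and the others from cells transfected with an siRNA against RUVBL1. All cells were grown in medium with fetal bovine serum, penicillin and streptomycin. The labels name 1 cell line and 1 target siRNA, and they give neither the time after transfection nor a drug treatment. Whether replicates were separate cultures is not said, and p-values therefore speak only of the spread among these libraries, which may be technical.

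The U5 snRNP sits at the catalytic centre of the spliceosome, the machine that removes introns from pre-mRNA. It joins the U4/U6 snRNP to form the tri-snRNP, which enters the assembling spliceosome as a unit. PRPF8 is its scaffold, and the GTPase EFTUD2 and the helicase SNRNP200 bind to PRPF8. RUVBL1 and RUVBL2 are AAA+ ATPases of the R2TP complex, an HSP90 cochaperone that helps to assemble the U5 proteins, and ZNHIT2, ECD and AAR2 are linked to that pathway. The 5 annotated U5 RNA genes held 0 to 2 counts in any library and were not tested, so the data bear on the protein genes and not on the RNA. Reads of their near-identical copies may also not have been told apart.

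Library totals ran from 18985542 to 36054489 estimated counts, and RUVBL1 itself fell in the RUVBL1 siRNA libraries to 57.1% of the control mean (4698 ± 54.1 against 2684 ± 57.9 normalized counts, SD, n = 3; edgeR log2 fold change -0.81, adjusted p = 3.74e-10). The replicate 1 libraries of both groups listed 541 genes at 0 that had at least 20 counts in each of the other 4 libraries. None of the 10 genes was among them. All 8 luminal prostate markers given here, among them KLK3 and HOXB13, had at least 100 counts in every library. Their summed normalized counts were 66423 to 68671 in the control libraries and 59883 to 62357 in the RUVBL1 siRNA libraries. Of 9 matched markers of stromal, endothelial and immune cells, CD3E, DCN and LUM were at 0 in every library, PTPRC had 4 to 14 counts, and COL1A1 had 185 to 324. CD68 fell to 51.4% and ACTA2 to 39.8% of the control mean (edgeR adjusted p = 8.71e-06 and 1.45e-06), while COL1A1 was at 100.5% and not called. The summed level of these 9 was 813 to 928 in the control libraries and 542 to 593 in the RUVBL1 siRNA libraries. The part of these shifts in the results that follow was not tested.

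After RUVBL1 siRNA, 7 of the 10 U5 genes fell and 1 rose. DDX23, EFTUD2, PRPF8 and ECD fell most, to between 73.2% and 79.7% of the control mean. SNRNP200, AAR2 and PRPF6 fell to between 85.9% and 91.2%, TXNL4A rose to 113%, and CD2BP2 and ZNHIT2 did not pass the test. A change was called at an adjusted p under 0.05 in edgeR's quasi-likelihood test, adjusted over 16006 tested genes. Of all tested genes 42.2% were called, 23.1% lower and 19.1% higher. The median log2 fold change was -0.19 over the 10 genes and 0.01 over all tested genes. In bulk RNA, fewer cells that express a gene and less RNA per cell cannot be told apart.

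**Figure D1:**
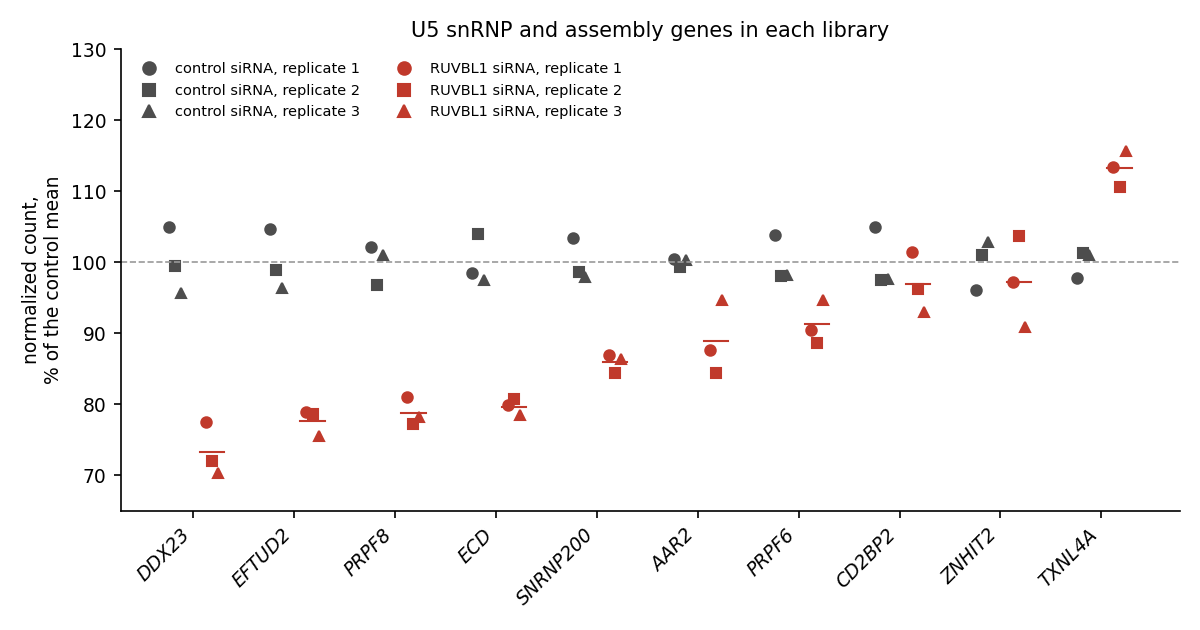
Normalized count of each U5 snRNP and assembly gene in each library, as a percentage of the mean of the 3 control libraries. Grey symbols are control siRNA and red symbols RUVBL1 siRNA libraries, symbol shapes give the replicate number, and red bars are the RUVBL1 siRNA means. The red symbols lie below all grey ones for 7 genes and above them for TXNL4A, while they overlap for CD2BP2 and ZNHIT2.

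The share of genes called lower depended on how well a gene was counted. With the tested genes that have a transcript length ranked by mean normalized count into 10 equal groups, ZNHIT2 lay in group 6, AAR2 in group 7, ECD in group 8, EFTUD2, DDX23, TXNL4A and CD2BP2 in group 9, and PRPF8, SNRNP200 and PRPF6 in group 10. In groups 6 to 10, 24.7%, 31.0%, 38.7%, 45.2% and 53.1% of genes were called lower. The 7 of 10 therefore stands beside a larger share among well-counted genes than the 23.1% of all genes. The median log2 fold change was -0.03 in groups 7 and 8, -0.06 in group 9 and -0.08 in group 10. The part of this trend in the falls of the 7 genes was not tested.

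PRPF8, the scaffold that cradles the splice sites and the U5 loop, was the most counted of the 10 genes. Its normalized counts, that is counts scaled to a common library size with TMM factors, were 8439, 8000 and 8345 with control siRNA and 6697, 6375 and 6461 with RUVBL1 siRNA. The lowest control library was thus above the highest RUVBL1 siRNA library. The level after RUVBL1 siRNA was 78.8% ± 2.01 (SD, n = 3) of the control mean (log2 fold change -0.34, SE 0.0245, edgeR adjusted p = 3.84e-07). Between libraries of the same number it was 79.4%, 79.7% and 77.4%.

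EFTUD2 encodes the GTPase of U5, which resembles the translation elongation factor EF-2 and regulates the SNRNP200 helicase. It had 2842, 2686 and 2615 normalized counts with control siRNA and 2143, 2132 and 2048 with RUVBL1 siRNA. The groups did not overlap, and the level after RUVBL1 siRNA was 77.7% ± 1.92 (SD, n = 3) of that in the controls (log2 fold change -0.36, SE 0.0360, edgeR adjusted p = 4.98e-06). SNRNP200 encodes the helicase that unwinds the U4/U6 duplex. Its normalized counts were 5368, 5124 and 5087 with control siRNA and 4517, 4382 and 4485 with RUVBL1 siRNA. These groups were also separate, with a smaller fall to 85.9% ± 1.36 (SD, n = 3) of the control mean (log2 fold change -0.22, SE 0.0245, edgeR adjusted p = 1.47e-05).

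PRPF6, DDX23 and TXNL4A encode proteins of the particle that act at its contacts with other parts of the spliceosome. PRPF6 bridges U5 and the U4/U6 snRNP. It had 3410, 3220 and 3228 normalized counts with control siRNA and 2972, 2909 and 3112 with RUVBL1 siRNA. The fall to 91.2% ± 3.15 (SD, n = 3) of the control mean was the smallest of those called (log2 fold change -0.13, SE 0.0335, edgeR adjusted p = 0.00673).

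DDX23 is the helicase that helps to release the U1 snRNP from the 5′ splice site. It fell most of the 10 genes, from 2389, 2264 and 2178 normalized counts with control siRNA to 1765, 1638 and 1600 with RUVBL1 siRNA. The lowest control library was above the highest RUVBL1 siRNA library by more than either group's SD of 106 and 86.5. The level was 73.2% ± 3.80 (SD, n = 3) of the control mean (log2 fold change -0.45, SE 0.0442, edgeR adjusted p = 6.94e-06), and 6.71% of all tested genes had a lower log2 fold change.

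TXNL4A encodes a small protein with a thioredoxin fold that contacts PRPF8 in the particle, and it was the only one of the 10 genes called higher. Its normalized counts were 2119, 2193 and 2187 with control siRNA and 2458, 2396 and 2506 with RUVBL1 siRNA, without overlap. The level rose to 113% ± 2.56 (SD, n = 3) of the control mean (log2 fold change 0.18, SE 0.0307, edgeR adjusted p = 0.000465). TXNL4A was higher in each pair of libraries with the same number, at 116%, 109% and 115%.

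Among the assembly factors, ECD and AAR2 fell. ECD, the human ecdysoneless protein, binds the R2TP complex and PRPF8. It had 1398, 1476 and 1382 normalized counts with control siRNA and 1132, 1146 and 1113 with RUVBL1 siRNA, or 79.7% ± 1.17 (SD, n = 3) of the control mean (log2 fold change -0.33, SE 0.0362, edgeR adjusted p = 1.27e-05). AAR2 holds PRPF8 in an intermediate of U5 assembly, before SNRNP200 binds. It had 1175, 1162 and 1173 normalized counts with control siRNA and 1024, 987 and 1108 with RUVBL1 siRNA. The fall to 88.9% ± 5.32 (SD, n = 3) came with a wider spread after RUVBL1 siRNA, where replicate 3 lay nearest to the controls (log2 fold change -0.17, SE 0.0440, edgeR adjusted p = 0.00761).

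CD2BP2 and ZNHIT2 were not called. CD2BP2 binds TXNL4A and PRPF6 in U5 but leaves before the tri-snRNP forms. Its normalized counts were 2392, 2221 and 2226 with control siRNA and 2313, 2194 and 2120 with RUVBL1 siRNA, and the groups overlapped (log2 fold change -0.05, 95% interval -0.13 to 0.04, edgeR adjusted p = 0.416). ZNHIT2, a zinc finger HIT protein that binds RUVBL1 and RUVBL2, was the least counted of the 10. It had 685, 721 and 734 normalized counts with control siRNA and 693, 739 and 648 with RUVBL1 siRNA (log2 fold change -0.04, 95% interval -0.17 to 0.09, edgeR adjusted p = 0.641). RUVBL1 siRNA replicate 3 was the lowest of its group for both genes. Both intervals reach as far down as the fall of PRPF6, so the values do not show that these 2 genes kept their level.

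The groups did not overlap for 8 of the 10 genes, where 52.6% of all tested genes had groups that did not overlap. That share was not split by how well a gene was counted. Among genes ranked by mean normalized count, 69.2% in group 9 and 76.5% in group 10 were called in either direction. For each of these 8 genes an exact permutation test (two-sided) gave p = 0.1, the smallest that the 20 assignments of 3 against 3 libraries allow, and p = 0.4 for CD2BP2 and p = 0.7 for ZNHIT2. DDX23, EFTUD2, PRPF8, ECD, SNRNP200 and TXNL4A kept their direction and their call under all 16 other settings tried. Under scaling by library totals alone, the median log2 fold change of all tested genes moved from 0.01 to 0.11, and 5 of the 10 genes were lower and 1 higher, beside 14.4% and 31.1% of all tested genes. With the replicate number as a block, 7 were lower and 1 higher, beside 25.6% and 23.4%. PRPF6 and AAR2 were called with the block but not under scaling by totals alone (log2 fold change -0.03, adjusted p = 0.502, and -0.07, adjusted p = 0.223, edgeR).

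**Figure D2:**
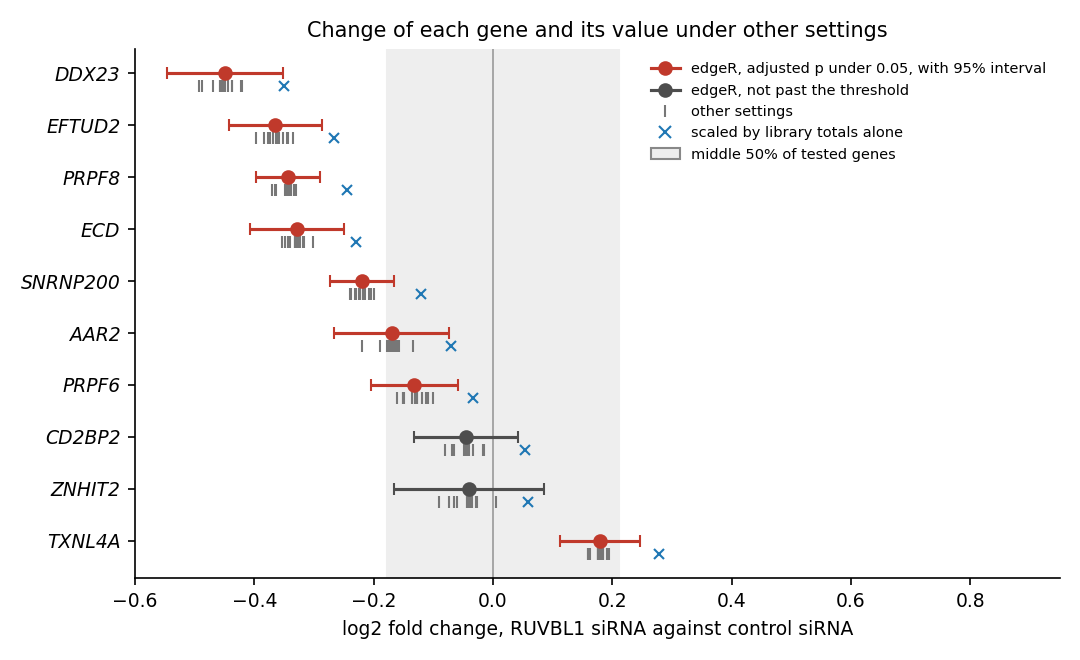
Log2 fold change of each U5 snRNP and assembly gene, RUVBL1 siRNA against control siRNA, with its 95% interval from edgeR (red, adjusted p under 0.05, and dark grey, not past it). Ticks below each point give the other settings tried, blue crosses the scaling by library totals alone, and the grey band the middle 50% of tested genes (-0.18 to 0.21). The blue crosses lie to the right of every point, and those of PRPF6 and AAR2 lie nearest to 0 among the genes that fell.

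Since the scaling between libraries moves every gene by the same amount, the genes were also set against PRPF8 within each library, where no scaling enters. DDX23, EFTUD2 and ECD had ratios to PRPF8 that overlapped between the groups. EFTUD2 had 33.7, 33.6 and 31.3 counts per 100 PRPF8 counts with control siRNA and 32.0, 33.4 and 31.7 with RUVBL1 siRNA. ECD had 16.6, 18.4 and 16.6 with control siRNA and 16.9, 18.0 and 17.2 with RUVBL1 siRNA. For DDX23 the values were 28.3, 28.3 and 26.1, and 26.4, 25.7 and 24.8. The ratio of DDX23 was thus lower after RUVBL1 siRNA in each of the 3 same-numbered pairs (0.929-fold on average over log2 ratios). The exact permutation test over unpaired libraries gave p = 0.8, 0.8 and 0.2 for EFTUD2, ECD and DDX23, which does not show that their ratios stayed the same.

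The other 6 genes had a higher count relative to PRPF8 in every RUVBL1 siRNA library than in any control library. TXNL4A had 25.1, 27.4 and 26.2 counts per 100 PRPF8 counts with control siRNA and 36.7, 37.6 and 38.8 with RUVBL1 siRNA, a 1.44-fold higher ratio. The ratio of ZNHIT2 was 1.23-fold higher, with 8.11, 9.01 and 8.79 with control siRNA and 10.3, 11.6 and 10.0 with RUVBL1 siRNA. That of CD2BP2 was also 1.23-fold higher, with 28.3, 27.8 and 26.7 against 34.5, 34.4 and 32.8. The ratios of PRPF6, AAR2 and SNRNP200 were 1.16-fold, 1.13-fold and 1.09-fold higher. Each of these 6 ratios gave an exact two-sided permutation p = 0.1, the smallest possible, and 0.15 with Benjamini-Hochberg adjustment over the 9 ratios, so none could pass a threshold of 0.05 in this design. All 9 ratios share the PRPF8 counts. PRPF8 itself fell to 78.8% of the control mean, so a gene with an unchanged level would also have a higher ratio to it.

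**Figure D3:**
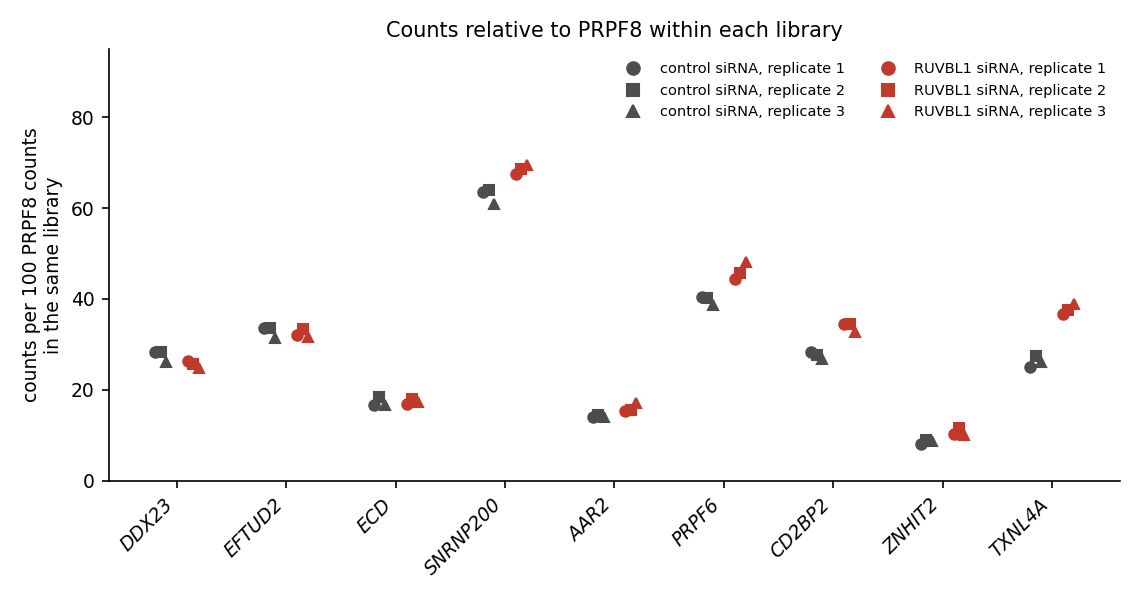
Estimated counts of 9 genes per 100 PRPF8 counts in the same library, on a linear axis from 0. Grey symbols are control siRNA and red symbols RUVBL1 siRNA libraries, and shapes give the replicate number. DDX23, EFTUD2 and ECD overlap between groups, and the red symbols of the other 6 genes lie above the grey ones, by 1.44-fold for TXNL4A.

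Levels were compared between genes per length, as counts divided by the length of the principal GENCODE 29 transcript and scaled to a common sum over all genes (TPM, the usual per-length unit). This scale uses library totals and serves here for the order of the genes. In the control libraries PRPF8 at 71.7 ± 2.58 TPM and PRPF6 at 69.7 ± 3.12 TPM were highest (SD, n = 3 for each value here), with overlapping ranges. Within each control library PRPF8 was the higher, at 74.2 and 73.3, 69.0 and 68.0, and 71.7 and 67.9 TPM. SNRNP200 (46.8 ± 1.94), DDX23 (45.3 ± 2.64) and CD2BP2 (43.0 ± 2.36) followed. The ranges of neighbours among these overlapped, but their order was the same within each control library. TXNL4A at 39.9 ± 0.319 and EFTUD2 at 38.6 ± 2.12 also overlapped each other. With replicates 2 and 3 alone, none of these neighbours overlapped in the control libraries. ZNHIT2 (35.2 ± 0.837), ECD (29.8 ± 1.03) and AAR2 (28.1 ± 0.442) were lowest and each separate from the next.

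In the RUVBL1 siRNA libraries the order had changed. PRPF6 at 68.8 ± 2.24 TPM stood above PRPF8 at 61.1 ± 1.96 without overlap, and TXNL4A came next at 48.9 ± 1.13. DDX23, above CD2BP2 and TXNL4A in the controls, was below both at 35.9 ± 2.12 and overlapped ZNHIT2 at 37.1 ± 2.49. EFTUD2 followed at 32.4 ± 0.970, and AAR2 and ECD were lowest at 27.0 ± 1.55 and 25.7 ± 0.458, with overlapping ranges.

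**Figure D4:**
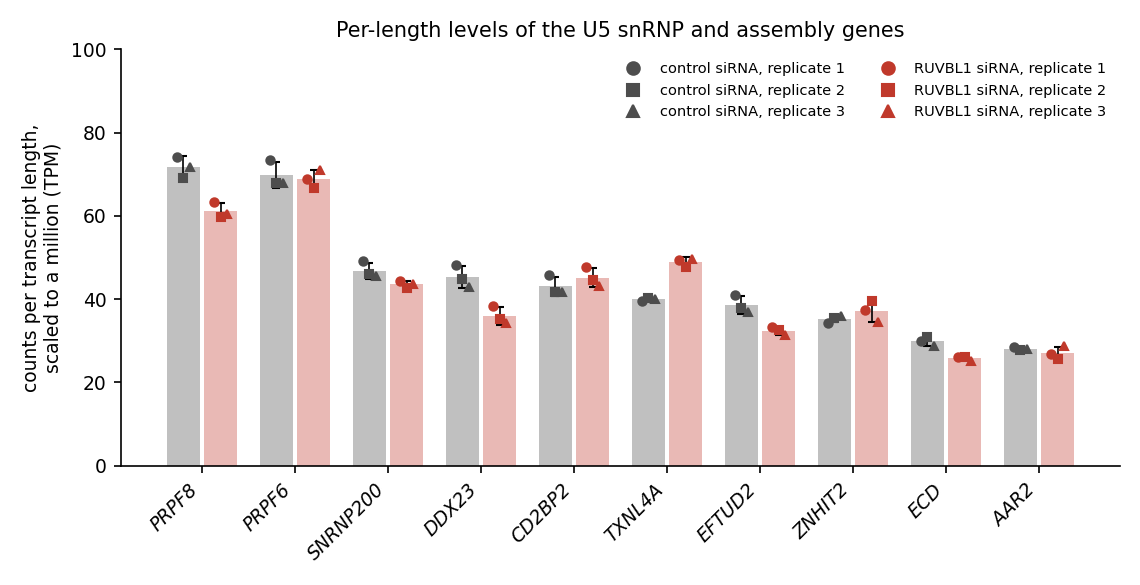
Per-length level (TPM, linear axis from 0) of the 10 genes in order of their control mean. Bars are means, error bars the SD of 3 libraries, and symbols the single libraries. The ranges of PRPF8 and PRPF6 overlap in the control libraries (means 71.7 and 69.7), with PRPF8 above PRPF6 in each of them. After RUVBL1 siRNA they do not overlap, and PRPF6 is the higher (61.1 and 68.8). The bar of TXNL4A is the one whose red symbols stand farthest above the grey ones.

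The 10 genes differ widely in structure. The principal transcript has 45 exons in SNRNP200, 42 in PRPF8, 28 in EFTUD2, 21 in PRPF6, 17 in DDX23, 14 in ECD, 7 in CD2BP2, 4 in AAR2 and 3 in TXNL4A. ZNHIT2 has a single exon of 1306 bases and thus no intron in this transcript. The 7 genes called lower have 4 to 45 exons. The 5 genes that fell most have 14 to 45 exons. AAR2, with 4 exons, fell more than PRPF6, with 21, which fell least of those called. The transcripts of PRPF8 and SNRNP200 are also the longest of the 10, with 7445 and 7165 bases. Over 10 groups of tested genes by transcript length, the median log2 fold change ran from 0.10 in the shortest to -0.03 in the longest. The part of transcript length in the falls of these 5 genes was not tested. Exonic bases are shared with genes on the other strand for ZNHIT2 (13.4% of its exonic bases, with a gene at 0 counts), EFTUD2 (3.75% with CCDC103, which had 56.5 to 82.5 counts, and 1.44% with HIGD1B, at 0 to 4 counts), PRPF8 (1.38%) and TXNL4A (12 bases). Whether the counting used strand is not given in the sources used here, and reads in these stretches may not have been told apart.

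The promoters were read as the RefSeq windows of 250 bases before to 50 bases after each start (GRCh38.p14), and all 10 genes had 1 or more, 13 windows in all. For 7 motifs of common promoter factors the windows were searched on both strands, and ECD and TXNL4A held none of them. The ETS letters CCGGAAG were found in the windows of SNRNP200, PRPF6, AAR2, CD2BP2 and ZNHIT2, and in 10.3% of all 35116 windows. They were not found for DDX23, EFTUD2, PRPF8 and ECD, which fell, nor for TXNL4A, which rose. The CCAAT box (CCAAT, in 34.6% of all windows) was found for PRPF8, DDX23 and CD2BP2. The E-box CACGTG (7.26% of all) was found for EFTUD2 and CD2BP2, the YY1 letters AAGATGG (5.84%) for DDX23 and AAR2, the TATA box TATAAA (11.5%) for AAR2 and the heat shock element GAANNTTC (6.77%) for ZNHIT2, where it overlaps the ETS letters. The composite ATF4 element TGATGNAA (3.62%) was found in none of the 13 windows. A match of letters is a description and not a bound site. The 250 bases before the start are printed for the scaffold, for the gene with the largest fall, and for 2 genes with ETS letters, of which 1 fell less and 1 was not called. Capitals mark the motif letters on either strand, so that ATTGG is the CCAAT box read on the other strand.
PRPF8, chr17:1684868-1685117, minus strand: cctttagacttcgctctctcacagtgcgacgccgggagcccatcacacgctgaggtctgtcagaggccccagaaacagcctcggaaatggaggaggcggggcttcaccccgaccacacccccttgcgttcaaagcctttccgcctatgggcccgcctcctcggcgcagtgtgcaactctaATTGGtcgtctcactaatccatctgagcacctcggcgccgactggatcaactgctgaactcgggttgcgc
DDX23, chr12:48852164-48852413, minus strand: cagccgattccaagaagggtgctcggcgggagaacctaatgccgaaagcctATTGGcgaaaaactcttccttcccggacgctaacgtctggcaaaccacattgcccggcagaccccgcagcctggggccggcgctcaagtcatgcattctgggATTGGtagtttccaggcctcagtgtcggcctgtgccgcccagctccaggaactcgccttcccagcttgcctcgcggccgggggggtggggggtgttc
SNRNP200, chr2:96305547-96305796, minus strand: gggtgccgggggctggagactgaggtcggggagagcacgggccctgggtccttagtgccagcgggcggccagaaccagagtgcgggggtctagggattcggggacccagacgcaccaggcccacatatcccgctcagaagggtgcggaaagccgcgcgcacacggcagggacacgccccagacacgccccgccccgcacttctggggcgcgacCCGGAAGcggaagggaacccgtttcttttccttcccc
ZNHIT2, chr11:65117702-65117951, minus strand: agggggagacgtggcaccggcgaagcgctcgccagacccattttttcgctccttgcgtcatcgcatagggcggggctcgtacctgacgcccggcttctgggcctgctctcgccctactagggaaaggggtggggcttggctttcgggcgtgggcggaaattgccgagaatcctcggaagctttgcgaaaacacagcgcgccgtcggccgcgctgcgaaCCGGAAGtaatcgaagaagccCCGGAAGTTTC

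Another list held 4 further genes of U5 and its assembly. All 4 were called, 3 lower and 1 higher (2 and 1 with totals alone). SNRNP40, the WD40-repeat protein of U5, had 986 ± 8.19 normalized counts with control siRNA and fell to 763 ± 25.8 (SD, n = 3; log2 fold change -0.37, edgeR adjusted p = 1.83e-05), close to the fold change of EFTUD2 in size. TSSC4, a U5 assembly chaperone, fell to 86.0% of the control mean (log2 fold change -0.22, edgeR adjusted p = 0.000569). TTC27, a tetratricopeptide protein, fell to 83.9% (log2 fold change -0.25, edgeR adjusted p = 0.0106) but had an adjusted p = 0.0934 under scaling by totals alone. TXNL4B, the paralogue of TXNL4A, rose to 132% (log2 fold change 0.40, edgeR adjusted p = 0.00178), so that both thioredoxin-fold genes were higher.

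**Figure D5:**
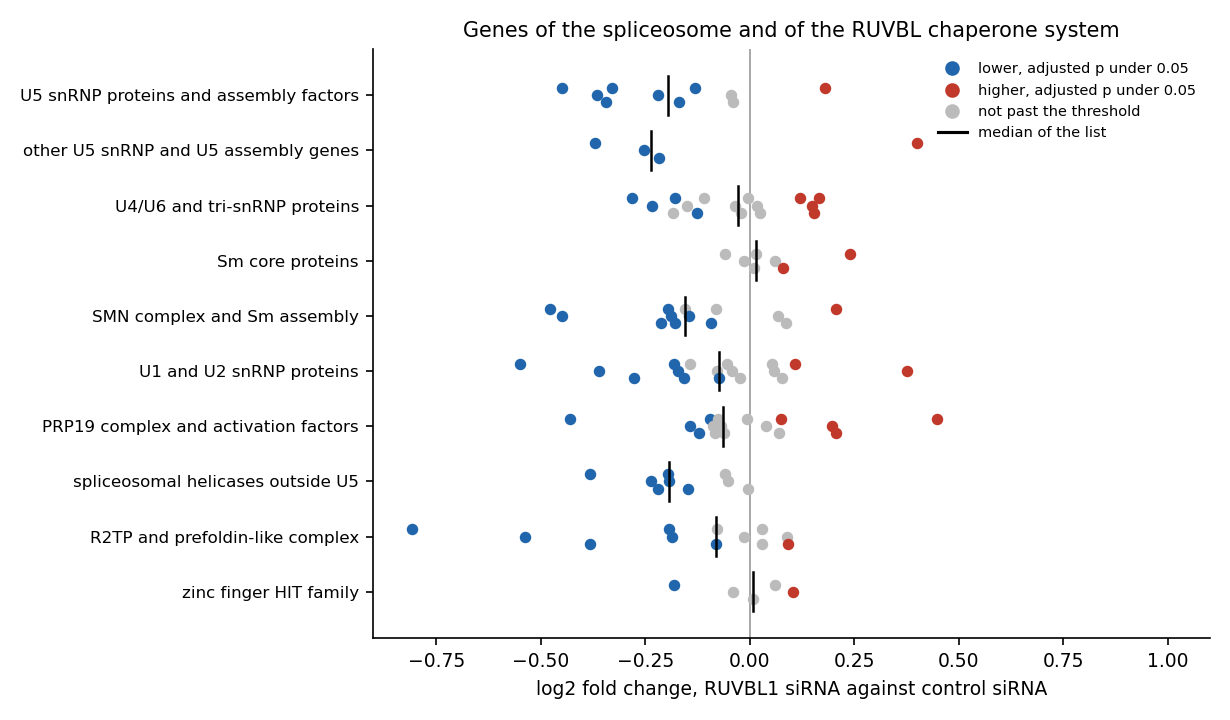
Log2 fold change of each tested gene of the U5 list, other spliceosome lists and RUVBL chaperone lists, RUVBL1 siRNA against control siRNA. Blue points are genes called lower, red points genes called higher (edgeR adjusted p under 0.05) and light grey points genes not past the threshold, and black bars are list medians. The median of the U5 list is -0.19 and that of the Sm core proteins 0.02.

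Across 7 other lists of spliceosome genes, 82 genes were tested, of which 32 were lower, 14 higher and 36 not called, with a median log2 fold change of -0.07. Under scaling by totals alone, 16 were lower and 26 higher, so the balance of directions in these lists depends on the scaling. The same held for all tested genes. Of these, 23.1% were lower and 19.1% higher with TMM factors, and 14.4% and 31.1% with totals alone. The lists were as follows in the scaling with TMM factors. Of 16 U4/U6 and tri-snRNP proteins, which partner U5 in the tri-snRNP, 4 were lower and 4 higher (2 and 6 with totals alone), with a median of -0.03. The U4/U6 proteins PRPF4 and PRPF3 fell by 0.28 and 0.23 on the log2 scale, while the U6-binding LSM5 and the peptidyl-prolyl isomerase PPIH rose by 0.17 and 0.15. LSM5 lost its call without control replicate 1 or 2 or any RUVBL1 siRNA replicate (adjusted p from 0.0520 to 0.130) and in limma-voom (adjusted p = 0.0623), and PPIH without control replicate 3 (adjusted p = 0.0517, edgeR).

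The Sm proteins form the ring that U5 shares with the U1, U2 and U4 snRNPs. Of 7 Sm genes, 0 were lower and 2 higher (0 and 5 with totals alone). No Sm gene was lower at an unadjusted p under 0.05 in edgeR either, and DESeq2 and limma-voom each called 0 lower, but the replicate block and the fit with no filter on low counts called 1. SNRPF rose by 0.24 on the log2 scale and SNRPD3 by 0.08. The call of SNRPD3 was lost without control replicate 1, control replicate 3 or RUVBL1 siRNA replicate 3 (adjusted p from 0.0787 to 0.0809, edgeR), and with no filter on low counts (adjusted p = 0.115). Of 13 genes of the SMN complex and Sm ring assembly, 8 were lower and 1 higher, with a median of -0.15, and 2 lower and 2 higher with totals alone. GEMIN4 and PRMT5, the methyltransferase gene whose product modifies Sm proteins, fell by 0.48 and 0.45 on the log2 scale, while GEMIN8 rose by 0.21. With the replicate block 2 were higher, as they were with DESeq2 size factors, with at least 50 counts in 3 libraries, without genes at 0 in replicate 1, without control replicate 1 and without RUVBL1 siRNA replicate 3. SMN1 and SMN2 are near-identical copies, and their counts are uncertain.

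The U1 and U2 snRNPs mark the splice sites before U5 arrives. Of 17 genes of these snRNPs and of U2AF (U2AF1 and U2AF2), 7 were lower and 2 higher, with a median of -0.07. With totals alone 5 were lower and 5 higher. U2AF2, which is not a protein of either snRNP, was among the lower genes with both scalings. The U2 subunits SF3A3 and SF3A1 fell by 0.55 and 0.36 on the log2 scale, and the U1 proteins SNRPA and SNRPC rose by 0.38 and 0.11. Of 16 genes of the PRP19 complex and other activation factors, 4 were lower and 4 higher (1 and 7 with totals alone, 8 and 3 with no filter on low counts). CDC5L fell by 0.43 and the helicase gene AQR by 0.14, whereas SYF2 rose by 0.45 and BUD31 by 0.21. AQR was not called with totals alone (adjusted p = 0.319, edgeR). Of 9 spliceosomal helicases outside U5, 6 were lower and 0 higher (4 and 0 with totals alone; no gene was higher at an unadjusted p under 0.05 in edgeR, nor with DESeq2 or limma-voom), with a median of -0.19, the same as that of the U5 list to 2 decimals. DHX15, which helps to take spliceosomes apart, fell by 0.38 and DHX16 by 0.24.

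The chaperone side of U5 assembly was read from 12 tested genes of R2TP and the prefoldin-like complex, of which 6 were lower and 1 higher (3 and 5 with totals alone), and 2 were higher with at least 50 counts in 3 libraries. Besides RUVBL1, its partner RUVBL2 and the R2TP subunit RPAP3 fell by 0.19 on the log2 scale each, and neither was called with totals alone (adjusted p = 0.0977 and 0.0642, edgeR). The HSP90 genes HSP90AA1 and HSP90AB1 fell by 0.54 and 0.38. PIH1D1, the R2TP subunit that binds phosphorylated clients, was at the threshold, with a log2 fold change of -0.08 (edgeR adjusted p = 0.0497). Its call was lost without each of the 6 libraries in turn (adjusted p from 0.0630 to 0.121), and under 6 other settings, among them DESeq2 (adjusted p = 0.0888). URI1 was called higher (log2 fold change 0.09, edgeR adjusted p = 0.0421), and this was lost without each of the control replicates and without RUVBL1 siRNA replicate 2 or 3 (adjusted p from 0.0971 to 0.175), and under 3 other settings, among them limma-voom (adjusted p = 0.0506). UXT, PDRG1, PFDN2, PFDN6 and POLR2E were not called, with log2 fold changes of -0.08, 0.09, 0.03, -0.01 and 0.03.

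ZNHIT2 belongs to the zinc finger HIT family, several of whose proteins bind RUVBL1 and RUVBL2. Of 5 tested genes of the family, 1 was lower and 1 higher (0 and 1 with totals alone). ZNHIT6, a factor of box C/D snoRNP assembly, fell by 0.18 on the log2 scale and was not called with totals alone (adjusted p = 0.141, edgeR). ZNHIT1, a subunit of the SRCAP chromatin remodeller, rose by 0.10 and lost its call without control replicate 1 (adjusted p = 0.0563) or RUVBL1 siRNA replicate 2 (adjusted p = 0.0645), and with replicates 2 and 3 alone (adjusted p = 0.0559, edgeR). ZNHIT2, DDX59 and INO80B had log2 fold changes of -0.04, 0.01 and 0.06 and were not called.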

How the data were processed

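Total RNA of 6 libraries of C4-2B-ENZR cells, 3 per group, was analysed by the group and number in the labels. The authors deposited estimated counts, 87.8% to 90.5% of them exact whole numbers. Per the submitters' processing notes, the tools include Bowtie 0.12.2 and the builds are of mouse, which conflicts with the files' human gene identifiers. Counter, human build, annotation and strand are therefore treated as unknown, and counted genes get no coordinates. A luminal marker and a reference sequence are not reported here.

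Identifiers were matched to a table of gene names (51996 symbols, 131 of 134 list genes). Lengths were from GENCODE 29 and promoters from RefSeq. Rounded counts were fitted in R 4.3.3 by the quasi-likelihood test of edgeR 4.0.16, with its robust option, TMM factors and filterByExpr, and Benjamini-Hochberg adjustment over 16006 genes. The SE was the log2 fold change over the root of F. Exact permutation tests of a gene used log2 CPM (prior count 2). The fits were tested on simulated data with changes of 1.25-fold or more. There edgeR recovered 43 of 50 genes changed 1.25-fold and called 10 unchanged genes. The simulation changed only a small part of the genes, far less than the 42.2% called in the real data. It used the same dispersion for all genes and held neither a replicate effect nor the zeros of replicate 1. Smaller changes, such as those of SNRNP200, AAR2, PRPF6 and TXNL4A, were not simulated. Alternatives were DESeq2 1.42.0, limma-voom (limma 3.58.1), other scalings and filters, a replicate block and libraries left out.

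Members and lists were chosen with earlier results of these data known. Named were all members, RUVBL1, the further U5, zinc finger HIT and R2TP genes, the 2 largest called falls and rises of each other spliceosome list (mean of 100 normalized counts or more), and the 3 genes most like PRPF8. Deviations from group means correlated across genes at 0.939, 0.819 and 0.823 between libraries of equal number, and at 0.423, 0.192 and 0.220 over genes above 0 in replicate 1. Libraries of equal number were treated as pairs only in the same-numbered comparisons and in the replicate block. The main edgeR fit and the exact permutation tests were unpaired. Labels do not state this pairing, and control replicate 2 correlated with RUVBL1 siRNA replicate 3 at 0.817, or 0.176 over those genes.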

Additional observations from a re-analysis of the deposited data

How the results depend on the processing

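Under the 16 alternatives, 7 U5 genes were lower and 1 higher except under scaling by totals alone (5 and 1). All genes called numbered 6755 and ranged from 5741 to 7837, with 5741 to 6357 when 1 library was left out. The replicate block gave 7837 genes and the same 7 and 1 counts for the U5 list. It moved a list count by over 1.5 times for the SMN list, from 1 to 2 higher, and the Sm list, from 0 to 1 lower. CD2BP2 and ZNHIT2, never called, ranged from -0.08 to 0.05 and from -0.09 to 0.06 on the log2 scale. Scaling by totals alone reversed PIH1D1 to 0.017 (adjusted p = 0.721) and PFDN6 to 0.085 (adjusted p = 0.0448), and the cause was not tested. The exact test of 3 against 3 libraries cannot go below 0.1.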

Other observations

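The pattern of PRPF8 over the 6 libraries was compared with that of 11477 other tested genes with a symbol and a mean normalized count of 100 or more. The measure was the root mean square difference of log2 CPM values, each centred on its gene's mean. The 3 closest genes were DCAF1, a substrate receptor of a ubiquitin ligase, at 0.00821, the RING finger gene RNF215 at 0.0129 and the aminopeptidase gene LAP3 at 0.0135. Their log2 fold changes were -0.35, -0.34 and -0.33. At a looser limit of 0.1, 2256 genes lay within that distance of PRPF8. Among the U5 genes, EFTUD2 was closest and ranked 336 (0.0428), followed by ECD at rank 784, SNRNP200 at 1066 and DDX23 at 1188. TXNL4A was farthest, at 0.265.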
